A study of Mus musculus with 2 samples.

Results

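Blood cells reach the embryonic kidney with its vessels, and some of their microRNAs (miRNAs) are made in few other cell types. The 8 genes described here are 3 miRNA genes of red cells (Mir451a, Mir144 and Mir486a) and 5 of white cells (Mir223, Mir155, Mir150, Mir146b and Mir142b), of 1973 miRNA genes counted. They were chosen by name for what is known of their lineage, with earlier results of these data known. Counts are of reads on the gene's own strand, except that reads on the strand opposite to Mir142b stand for Mir142, which overlaps it. The kidneys came from healthy B6NCrl mouse embryos of both sexes at 15.5 days, with no treatment or mutation given in the labels. The labels call the samples biological replicates 1 and 2 of 1 group, which pool kidneys of 78 and 62 embryos, so differences between single embryos cannot be seen. The libraries hold small RNA, with a size range under 30 nt in the labels.

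miRNAs are cut from hairpin transcripts and pair through their seed (bases 2 to 8) with messenger RNAs, which they repress. In the red cell lineage Mir144 and Mir451a are transcribed together under the erythroid factor GATA1, and Mir486a lies within Ank1, the gene of erythrocyte ankyrin. Among white cells, miR-223 is known from neutrophils and other myeloid cells, miR-142 from nearly all blood cells, miR-155 from activated lymphocytes and macrophages, and miR-150 from mature lymphocytes. miR-146a and miR-146b dampen inflammatory signalling. At this age the fetal liver is a main site of blood formation.

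The mature sequences are shown because the seed sets the targets, with the seed in capitals, read 5′ to 3′ from the RefSeq table (GRCm38.p6).
miR-451a: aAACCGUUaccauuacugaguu
miR-144-3p: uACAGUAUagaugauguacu
miR-144-5p: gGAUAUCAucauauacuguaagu
miR-223-3p: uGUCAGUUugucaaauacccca
miR-155-5p: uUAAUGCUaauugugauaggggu
miR-142a-5p: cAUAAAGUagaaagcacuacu
miR-142a-3p: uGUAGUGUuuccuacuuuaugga
miR-142b: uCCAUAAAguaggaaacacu
miR-146a-5p: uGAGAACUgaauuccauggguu
miR-146b-5p: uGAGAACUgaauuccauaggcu

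The 11 mature sequences found for 7 of the 8 members carried 11 different seeds. This set took miR-142b for Mir142b, and the list above shows only part of it, beside miR-142a and miR-146a-5p. The seeds of miR-142a-5p and miR-142a-3p occurred in no other mature sequence of the table. Mir486a and the 5′ arm of Mir150 were not compared. Among 1738 mature sequences in the table, 1 other sequence matched a seed of a member, which was miR-146a-5p with miR-146b-5p. That pair is equal at 20 of 22 bases and differs by G18A and U21C, given as the miR-146a-5p base, the position from its 5′ end and the miR-146b-5p base. The files count whole hairpin genes, so the arms of a hairpin cannot be told apart.

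The hairpins of the erythroid pair are shown because their mature parts, in capitals, lie differently. Mir144 is at chr11:78073005-78073070 and Mir451a at chr11:78073170-78073241 (mm10, plus strand), with 99 bases between them.
Mir144: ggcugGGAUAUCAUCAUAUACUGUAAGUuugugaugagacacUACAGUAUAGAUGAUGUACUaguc
Mir451a: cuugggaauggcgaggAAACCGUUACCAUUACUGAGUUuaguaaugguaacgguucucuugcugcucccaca
Mir144 gives a mature miRNA from each arm. The single mature sequence of Mir451a runs on into the loop, and miR-451a is known for its processing by Argonaute 2 in place of Dicer. In the predicted lowest-energy fold (RNAfold) it covered all 4 bases of the terminal loop, at positions 35 to 38 of the hairpin. The mature parts of Mir144, Mir223, Mir155, Mir146b, Mir142b and Mir142 covered 0 bases of their predicted loops.

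All 3 erythroid genes were detected in both pools, and Mir451a supplied most of their reads. Mir451a had 1891 reads in replicate 1 and 2176 in replicate 2, which is 254 and 371 CPM, or reads per 1000000 own-strand reads of miRNA genes. Replicate 2 was the higher library, and the 95% exact binomial intervals, 243 to 266 and 356 to 387 CPM, did not overlap. Mir144 had 630 and 558 reads, or 84.7 and 95.2 CPM. Its level was thus near 90 CPM in both pools, 89.96 ± 7.37 (SD, n = 2). Mir451a exceeded Mir144 by 3.00 times in replicate 1 (95% exact binomial interval 2.74 to 3.29) and 3.90 times in replicate 2 (3.55 to 4.29). The ratio itself differed between the pools, by more than the counting error of either. Intervals here and below cover counting error only.

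Mir486a (ENSMUSG00000070084.3) lies in an intron of Ank1 at chr8:23142555-23142682 and was the lowest erythroid gene. It had 96 reads in replicate 1 and 130 in replicate 2, or 12.9 and 22.2 CPM. Mir451a exceeded it 19.7 times (16.04 to 24.4) and 16.7 times (14.02 to 20.1). On the other strand the locus holds a second hairpin, Mir486b, annotated as Mir3107, which overlaps Mir486a over 90 bases and was not analysed here. Reads that match several loci, 27.1% and 26.6% of all reads in the files, are in no gene's count. The number of these that came from Mir486a is not given, so its level can be too low. Mir486a is also known from striated muscle, whose marker list (5 of 6 genes measured, 3 of them at 0) summed to 971 and 661 CPM and was nearly all Mir206. The part of muscle in the count of Mir486a was not tested.

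Together the erythroid genes reached 352 and 488 CPM, or 0.0420% ± 0.00965 of counts (SD, n = 2). Mir451a took 72.3% of these reads in replicate 1 and 76.0% in replicate 2. Mir144 took 24.1% and 19.5%, and Mir486a 3.67% and 4.54%. Because the count of Mir486a can be too low, so can its share and the erythroid sum. In a bulk sample such as this, fewer cells of a type and less RNA per cell cannot be told apart.

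The leukocyte genes summed to more than the erythroid genes, led by Mir142, although by mean level Mir150 and Mir146b lay below all 3 erythroid genes and Mir155 below Mir451a. Reads opposite to Mir142b (ENSMUSG00000065420.2, chr11:87756841-87756955, minus strand) numbered 3459 in replicate 1 and 2995 in replicate 2, or 465 and 511 CPM. On the gene's own strand there were 0 reads in either library, which allows up to 0.404 and 0.512 CPM. All 64 bases of the Mir142 hairpin, at chr11:87756864-87756927, lie inside Mir142b on the opposite strand, in an intron annotated to Mir142hg. The Mir142 hairpin is shown with both mature parts in capitals.
Mir142: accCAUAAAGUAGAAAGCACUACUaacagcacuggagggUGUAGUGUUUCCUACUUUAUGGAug
The reverse complement of miR-142b is contained in miR-142a-3p, over 20 bases, so strand alone separates reads of that stretch. The median gene with 1000 or more reads on its strand had 0% of its reads opposite to it. No read fell on the strand opposite to Mir451a, where Mir451b overlaps all 72 bases.

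**Figure D1:**
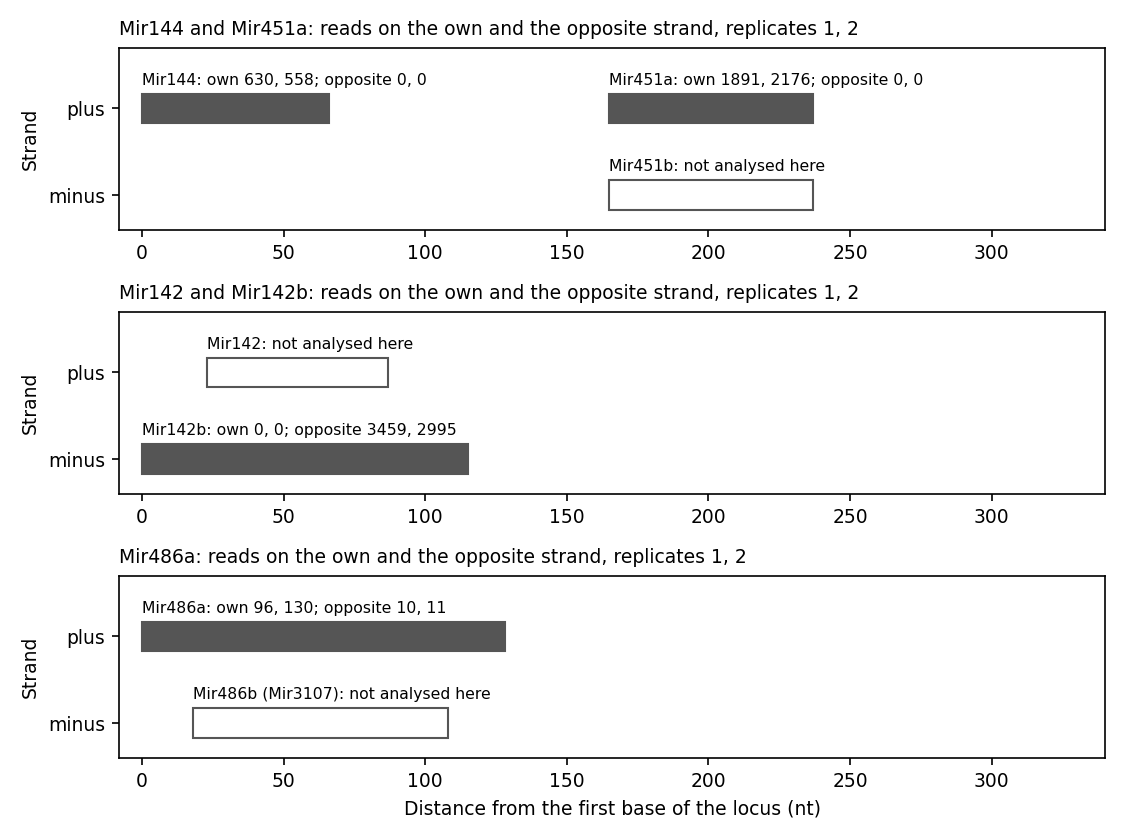
Maps of 3 loci, with distance from the first base of the locus (nt) on the x axis and the strand on the y axis. Filled bars are genes with counts, labelled with reads in replicates 1 and 2. Open bars are genes without counts of their own, labelled as not analysed here. Of these, Mir142 is represented in the text by the reads opposite to Mir142b. Mir142b has 0 reads on its own strand and 3459 and 2995 opposite to it, while Mir144 and Mir451a have 0 opposite.

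Mir223 (ENSMUSG00000076066.1, chrX:96242817-96242926, overlapping an exon of F630028O10Rik), the myeloid gene, was the second highest. It had 2920 and 2306 reads, and the libraries gave 392.8 and 393.3 CPM, which are nearly equal under division by the plain total. Mir142 exceeded it by 1.18 times in replicate 1 (1.13 to 1.24) and by 1.299 times in replicate 2 (1.23 to 1.37). Mir155 (ENSMUSG00000065397.1, chr16:84714140-84714204) overlaps an exon of its host transcript Mir155hg. It had 1609 and 1724 reads, or 216 and 294 CPM, with replicate 2 higher. Mir223 exceeded Mir155 by 1.81 times (1.71 to 1.93) in replicate 1 and by 1.34 times (1.26 to 1.42) in replicate 2, so the order held while the margin differed.

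Mir150 (ENSMUSG00000065495.1, chr7:45121757-45121821, outside any other annotated gene), the gene of mature lymphocytes, was far lower than Mir155. It had 76 and 75 reads, or 10.2 and 12.8 CPM. Mir155 exceeded it 21.2 times (16.8 to 27.0) and 23.0 times (18.2 to 29.4), so this gap was alike in both pools within counting error. Mir146b (ENSMUSG00000070127.2, chr19:46342762-46342870, in an intron of Mfsd13a) was the lowest member, with 1 read in each library. Its intervals, 0.00341 to 0.749 and 0.00432 to 0.950 CPM, stayed under 1 CPM. Mir146a, which shares its seed, had 619 and 702 reads, or 83.3 and 119.7 CPM. Of the seed pair, Mir146a thus supplied all but 1 read in each pool.

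The 5 leukocyte genes summed to 1085 and 1211 CPM, or 0.115% ± 0.00893 of counts (SD, n = 2). Mir142 took 42.9% and 42.2% of these reads and Mir223 36.2% and 32.5%. Mir155 took 19.95% and 24.3%, and Mir150 0.942% and 1.06%. The leukocyte sum exceeded the erythroid sum by 3.08 times in replicate 1 (2.95 to 3.22) and by 2.48 times in replicate 2 (2.37 to 2.59). Without the Mir142 reads the margin was 1.76 times (1.68 to 1.85) and 1.43 times (1.37 to 1.504). The size of the margin thus rests in part on counting that opposite strand. It also rests on listing miR-142, known from nearly all blood cells, with the leukocyte genes. The erythroid sum can be too low, and the margin too large, because reads of Mir486a that match several loci are not counted. These are sums of reads over lists of unequal length and do not give the proportion of the cells.

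In order of mean level the genes were Mir142, Mir223, Mir451a, Mir155, Mir144, Mir486a, Mir150 and Mir146b. With 2 libraries this order was not tested, and neighbours were compared by their ranges and by their ratio within each library. In 6 of the 7 neighbouring pairs both values of one gene lay above both of the next. The exception was Mir451a and Mir155, whose ranges overlapped, although Mir451a was higher within each library, by 1.18 times (1.10 to 1.26) and 1.26 times (1.18 to 1.35). The ranges of Mir486a and Mir150 nearly touched, at 12.9 and 12.8 CPM, and in replicate 1 the interval of their ratio, 0.925 to 1.73, included 1. Mir223 and Mir451a were also close in replicate 2, where their ratio was 1.06 (0.999 to 1.12), against 1.54 (1.46 to 1.64) in replicate 1.

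**Figure D2:**
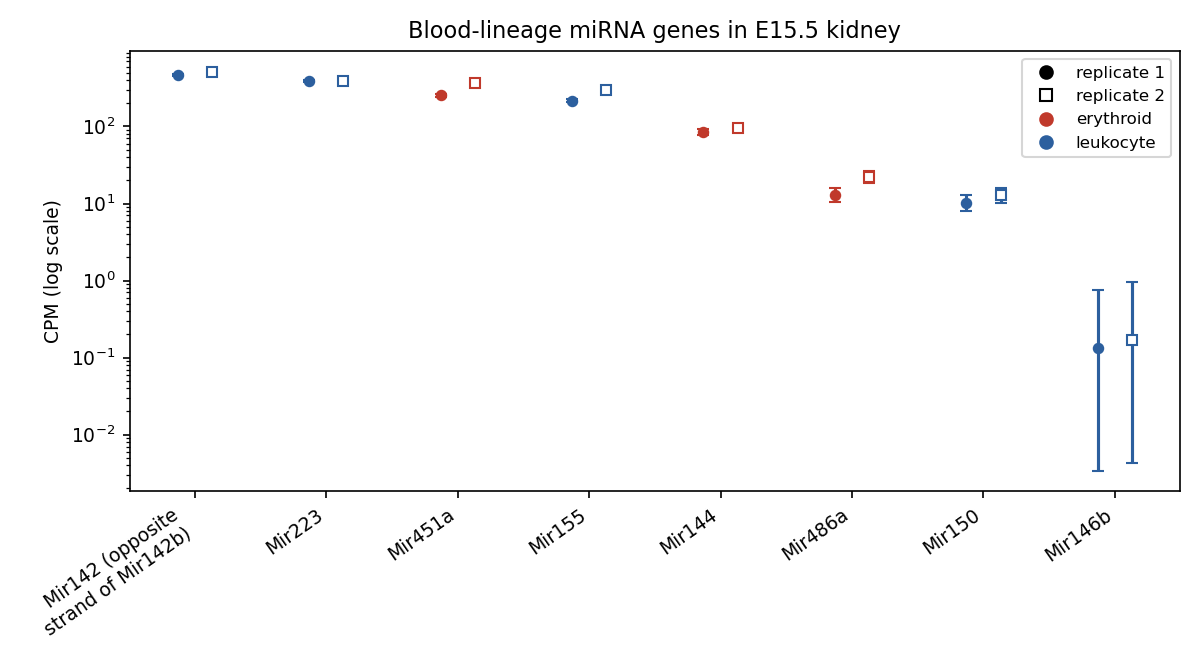
CPM of each gene (y axis, log scale) in replicate 1 (filled circles) and replicate 2 (open squares), with erythroid genes in red and leukocyte genes in blue. Bars are 95% exact binomial intervals, often smaller than the symbols. Values run from 465 and 511 CPM for Mir142 down to under 1 CPM for Mir146b.

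Compared with the other miRNA genes of the kidney, the members ranged from above the median of detected genes to under 1 CPM. By mean CPM, Mir142 would stand at rank 107, Mir223 stood at 116, Mir451a at 128 and Mir155 at 131. Mir144 was at rank 188, Mir486a at 254, Mir150 at 277 and Mir146b at 632. The median of the 394 genes with at least 1 CPM in both libraries was 68.8 CPM, and 7 of the 8 members passed that level of detection. All 8 together held 0.157% ± 0.0186 of counts (SD, n = 2). Mir126a, the endothelial miRNA of the vessels, exceeded their sum by 34.6 times (33.9 to 35.3) in replicate 1 and 28.1 times (27.6 to 28.7) in replicate 2. Genes of the kidney epithelium list and of the Hox cluster list were present. The Hox cluster genes held 24.4% of counts, led by Mir10a, and the 5 epithelial miR-200 genes 2.31%, while 4 of 5 measured neural markers were at 0. Members of the neural and muscle lists have near-identical copies, so their zeros do not show absence. The Hox cluster list also holds gene copies, so its share can be too low.

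**Figure D3:**
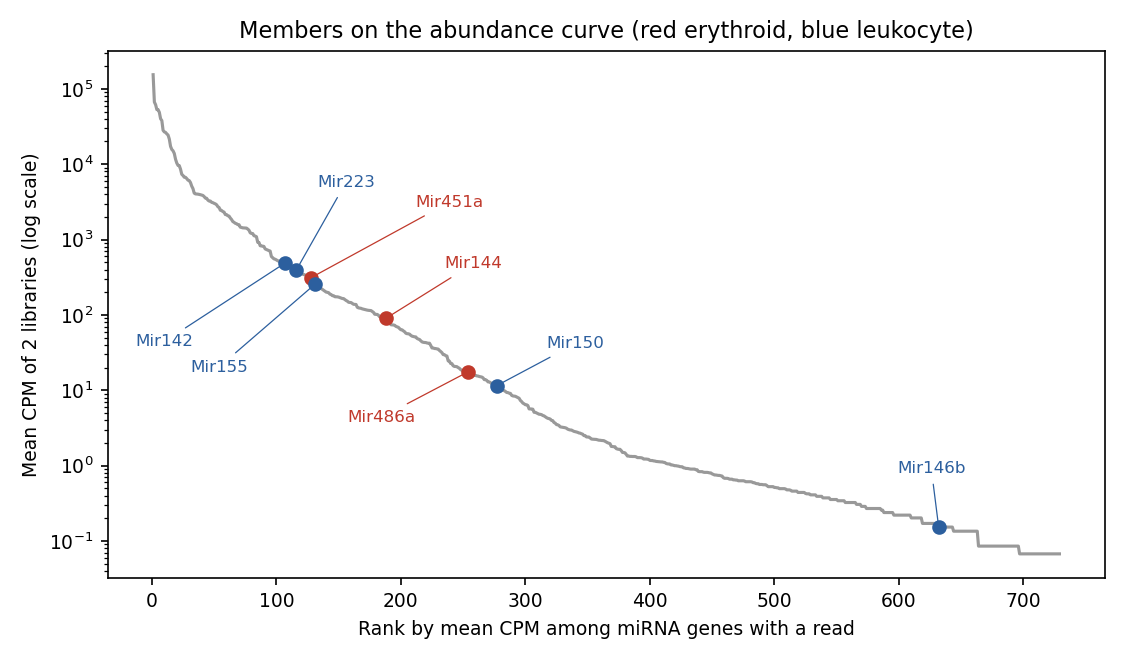
Mean CPM of the libraries (y axis, log scale) against the rank of each miRNA gene with a read (x axis), with erythroid members in red and leukocyte members in blue. Mir142, Mir223, Mir451a and Mir155 lie between ranks 107 and 131, and Mir146b lies at rank 632.

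Between the pools, 3 of the 7 members with a mean count of at least 10 were at least 1.3-fold higher in replicate 2, and 0 were 1.3-fold lower. Of all 378 genes with that mean count, 28.8% were that much higher and 10.1% that much lower, or 21.7% and 13.8% with TMM scaling (a scaling that trims extreme genes). Mir146b was too low to be compared. The median log2 ratio of all 378 genes was 0.15, and TMM scaling brought it to 0.02, so members are given relative to this median. The median of the 7 members was 0.32 before that subtraction. Of the 7, 5 lay above the median of all genes, beside 189 of all 378 genes.

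Mir486a differed most, by 0.63 above the all-gene median on the log2 scale, from a ratio of 1.72 (1.31 to 2.26). Mir451a lay 0.40 above it, from a ratio of 1.46 (1.37 to 1.55). Mir155 lay 0.29 above it, from a ratio of 1.36 (1.27 to 1.45), and it was under 1.3-fold with TMM, at a log2 ratio of 0.31. Mir150 lay 0.18 above it, but the interval of its ratio, 0.897 to 1.74, included 1. On the log2 scale that interval, -0.16 to 0.80, also included the median of 0.15. Mir144 lay 0.02 above it, and Mir142 lay at -0.01. Mir223 lay at -0.15 relative to the median, and the interval of its log2 ratio, -0.08 to 0.08, lay below that median. Its log2 ratio of 0.00 became -0.13 with TMM and -0.16 with DESeq2 size factors, so its direction depends on the scaling.

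**Figure D4:**
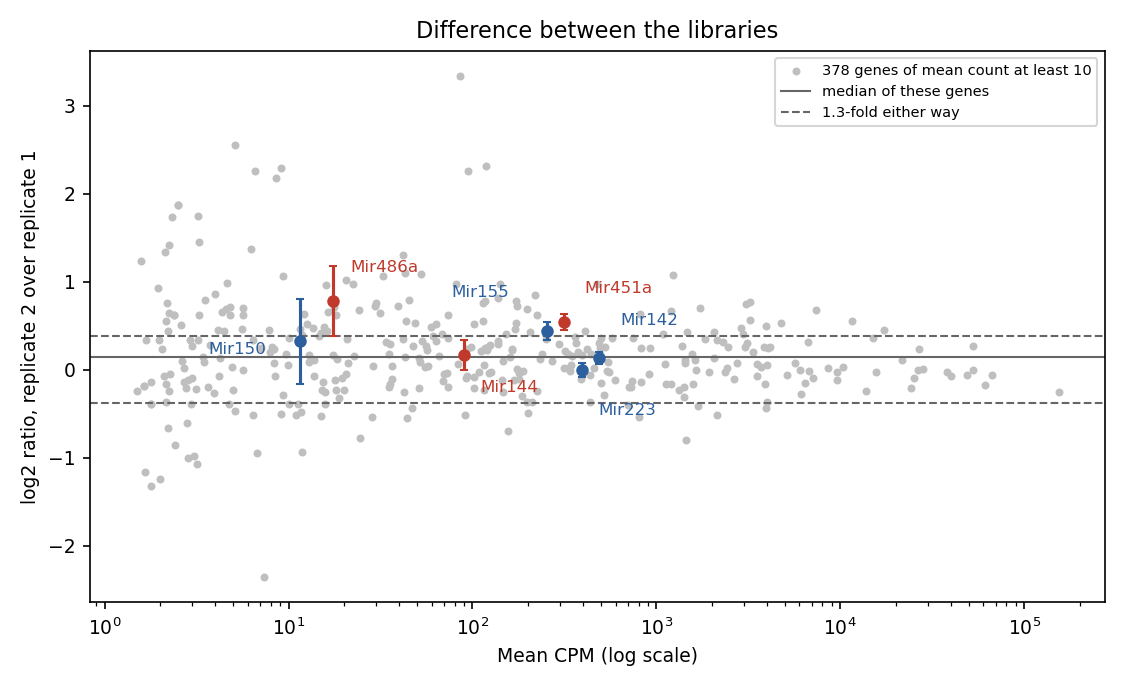
The log2 ratio of replicate 2 over replicate 1 (y axis) against mean CPM (x axis, log scale) for 378 genes (grey) and the 7 members of sufficient count (red erythroid, blue leukocyte). Bars are 95% exact binomial intervals. Mir486a, Mir451a and Mir155 lie above the dashed line at 1.3-fold, and the other 4 lie between the dashed lines.

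The erythroid sum and a hepatocyte marker were both higher in replicate 2 by more than the all-gene median log2 ratio of 0.15. By the nature of a median, 189 of the 378 genes also lay above it. The erythroid sum had a ratio of 1.39 (1.32 to 1.46), a log2 ratio of 0.47, with most of its reads from Mir451a. Mir144 alone had a log2 ratio of 0.17, near the median. Mir122, the hepatocyte miRNA and the single gene of that marker list, had 2371 and 3685 reads, or 319 and 628 CPM, a ratio of 1.97 (1.87 to 2.08) and a log2 ratio of 0.98. Mir122 exceeded Mir451a in both pools, by 1.25 times (1.18 to 1.33) and 1.69 times (1.61 to 1.79). The leukocyte sum had a ratio of 1.12 (1.08 to 1.15), a log2 ratio of 0.16, near the all-gene median. Mir126a had a ratio of 0.962 (0.957 to 0.966). The sums of other marker lists were lower in replicate 2. Their ratios were 0.859 for kidney epithelium, 0.867 for the Hox clusters and 0.681 for striated muscle. Single genes did not all follow these sums. Of the 5 Hox genes, 1 was at least 1.3-fold higher and 0 were 1.3-fold lower. For the 5 epithelial genes these counts were 0 and 1, and for 2 muscle genes of sufficient count 0 and 2. Among all genes 28.8% were that much higher and 10.1% that much lower. The part of liver tissue in the erythroid reads was not tested.

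The genes closest in pattern to the members, by distance in log2 CPM over the 2 libraries, were as follows. Mir210 was closest to Mir451a (distance 0.20), Mir30c-1 to Mir144 (0.097) and Mir3072 to Mir486a (0.050). Mir339 was closest to Mir223 (0.076), Mir540 to Mir155 (0.071), Mir1968 to Mir150 (0.075) and Mir320 to Mir142 (0.032). With 2 libraries the distance measures mainly how alike the levels are.

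A wider list of 16 miRNA genes with known roles in blood formation or immunity, none restricted to blood cells, held a larger share than the members, at 1.64% ± 0.124 of counts (SD, n = 2). Mir21a, abundant in many tissues and raised in activated immune cells, led at 6743 and 6695 CPM. Mir342, in an intron of Evl and known from lymphoid cells, had 2398 and 4083 CPM. Mir22, which is raised in maturing red cells, had 2749 and 3293 CPM. Mir181a-1, which tunes the sensitivity of the T cell receptor, had 1832 and 1057 CPM, and its mature sequence has a second gene copy, so its count is uncertain. Other genes of this list have copies too, so the share of the list can be too low. Of the 16 genes, 3 were at least 1.3-fold higher in replicate 2 and 2 at least 1.3-fold lower, against the 28.8% and 10.1% of all genes given above. Their median log2 ratio was 0.20, and that of all genes 0.15.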

How the data were processed

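For 2 pooled kidney libraries the authors deposited a count table of raw reads, with columns for both strands of a miRNA gene together, its own strand and the opposite one. The deposited notes name mm10 and GENCODE M4. Which aligner and counting program were used is not given in the sources used here. Replicates 1 and 2 held 14419931 and 12102315 reads in all and 7434182 and 5863293 own-strand gene reads, the denominator of CPM. Lines for unmapped, multimapping and no-feature reads stayed out of it.

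Names and positions came from GENCODE M21 (same assembly), matched by Ensembl identifier for 1894 of 1973 genes. Mir486a and Mir146a are annotated as Mir486 and Mir146 and were matched by RefSeq synonym. The RefSeq table held a hairpin for 6 of the 8 members. With 1 group there was no contrast to test. Values are given per library with mean and SD, and ratios with exact (Clopper-Pearson) binomial intervals at 95%. A count of 0 allows 3 counts. A ratio counted as higher or lower from 1.3-fold at a mean count of at least 10. The ratios and their intervals were tested on simulated counts. The members and lists were chosen with earlier results of these data known. The text names all members, the nearest gene to each by pattern, the 4 highest genes of the wider list, leading marker genes and genes that share a locus with a member. Alternatives were other scalings (edgeR 4.0.16 for TMM, DESeq2 1.42.0, in R 4.3.3), totals, strands, filters, folds and left-out replicates. Python 3.11.15, scipy 1.17.1, pandas 2.3.3, matplotlib 3.10.9 and RNAfold 2.7.2 were used.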

Additional observations from a re-analysis of the deposited data

Results flagged for a closer look

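Mir486a had 10 reads on its opposite strand in replicate 1 and 11 in replicate 2, a signal in a column that the levels above do not use, above the 3 counts that a count of 0 allows. They compare with 96 and 130 reads on its own strand. Mir486b overlaps it there, and the part of Mir486b in these reads was not tested. No other member apart from Mir142b had more than 3 opposite-strand reads in either library.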

How the results depend on the processing

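Dividing by all reads in the files in place of own-strand gene reads gave an erythroid sum of 209 and a leukocyte sum of 573 CPM, since that total is larger. Leaving Mir10a, the most abundant gene, out of the total gave a leukocyte sum of 1356 CPM. Without the Mir142 reads the leukocyte sum was 659.9 CPM and its mean ratio to the erythroid sum 1.60, against 2.78 with them. At 1.5-fold 1 member was higher in replicate 2 in place of 3, and 18.3% of all genes. With TMM, DESeq2 size factors or the total of all reads 2 were, beside 21.7%, 19.8% and 23.0% of all genes. Leaving out each replicate in turn gave erythroid sums of 352 to 488 CPM, leukocyte sums of 1085 to 1211 CPM and ratios of 2.48 to 3.08. The other alternatives moved these sums, ratios and counts by less than the spread between libraries or than 1.5 times. The neighbouring pairs of genes with separate ranges stayed at 6 under TMM, DESeq2 size factors and both strands summed, alternatives chosen after seeing the data. Depth limits Mir146b, whose 1 read in each library cannot show a difference. No paired analysis was possible because there is 1 group.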
